A study of Mus musculus with 8 samples.

Results

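In the deposited table, mouse peritoneal macrophages responded to 5 µg/ml of LECT2 with 1 set of genes at 3.5 h. At 48 h they responded with a partly different set. With the scanner files taken as recorded, a link that conflicts with the table, 0 genes differed between the times. The comparison of these 2 times at this dose, called the high dose, is described here. Its members are 4 of the 8 arrays of the series, chosen by their labels: 2 arrays of cells treated for 3.5 h and 2 of cells treated for 48 h. The replicates come from 2 experiments with different mice, and the replicate number is taken here to mark the experiment. Each array carried RNA of treated cells (Cy3) and RNA of cells kept for the same time without LECT2 (Cy5). The macrophages were plated in low-glucose medium with fetal bovine serum, and the strain, sex and age of the mice are not given in the sources used here. The other 4 arrays hold cells given 0.5 µg/ml, the low dose, at the same times, and they enter the fit as a source of the spread between replicates.

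LECT2, leukocyte cell-derived chemotaxin 2, is a protein that the liver secretes into the blood. Macrophages that meet an inflammatory stimulus first transcribe cytokine, chemokine and immediate early genes, largely through the transcription factor NF-kB. Interferon made in this wave then acts on the cells themselves through STAT and IRF factors and drives antiviral genes, while inhibitors encoded by early NF-kB targets shut the first wave down.

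The effect of LECT2 is the log2 ratio of LECT2 over control. In the deposited table the ratio runs the other way, control divided by LECT2, although the titles name LECT2 first, so each value was turned round. The difference is the effect at 48 h minus the effect at 3.5 h. A gene is called higher or lower at 48 h when this difference is above or below 0 with an adjusted p under 0.05 from limma over all 26123 genes tested. A higher difference can therefore be a loss of an early decrease or a late increase. A dye effect that is equal on all arrays cancels in the difference. It does not cancel in the effect at 3.5 h or at 48 h, because LECT2 had the same dye on every array. Calls of genes as raised or lowered by LECT2 at either time can therefore include a dye effect, and its part was not tested.

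A conflict between the table and the scanner files bears on every value below. In 7 of the 8 columns of the table the scanner file that matches best is recorded under another sample. Under the matched link the 3.5 h arrays share slide 1 and those of 48 h share slide 2. Slide and time can then not be told apart. As recorded, the replicate 1 files share slide 1 and the replicate 2 files slide 2, so that slide and replicate coincide. High dose arrays of 1 replicate number correlated at r = 0.75 and 0.60 as recorded and 0.26 and 0.29 in the table. Those of 1 time correlated at 0.31 (3.5 h) and 0.32 (48 h) as recorded and 0.72 and 0.63 in the table. Which link is right was not tested. Taken as recorded, the files gave 0 genes with a difference (266 at an unadjusted p under 0.05) and the opposite sign for 72 genes, nearly all those named here. At 48 h about 99.4% of the probes carry the ratio computed by the scanner software to within 0.01, whereas the 3.5 h high dose columns follow a file at r = 0.994 and 0.974 over probes bright in both channels without being equal to it. The columns of the 2 times may thus have been made in different ways, and dim probes depart most (median absolute log2 departure 0.21 and 0.75). Counts are therefore given also for the 17534 genes well above background in both channels on all 4 high dose arrays, called bright below. The labels give the early time both as 3.5 h and as 3 h.

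The 7 measured macrophage markers (among them Adgre1, Csf1r, Itgam and Mertk) were bright, and none was higher or lower at 48 h. The summed LECT2 signal of 5 of them lay at log2 18.77 and 17.82 at 3.5 h and at 17.64 and 16.75 at 48 h. In the control channel it lay at 16.93 and 17.24 and then at 16.70 and 17.23. Of other cells, 9 of 11 T and NK cell markers, 6 of 7 B cell markers, 5 of 8 dendritic cell markers and 5 of 10 mesothelial and fibroblast markers were bright as well, so the cultures held RNA of such genes. In the LECT2 channel the summed signal of the B cell list lay at log2 12.87 and 13.15 at 3.5 h and at 11.31 and 11.39 at 48 h, and in the control channel at 13.25 and 12.68 and then at 11.58 and 11.68. The mast cell list went from 13.25 and 13.05 to 10.99 and 11.09 with LECT2 (control 13.94 and 12.56, then 11.59 and 11.22), and the red blood cell list from 11.99 and 10.81 to 9.59 and 9.47 (control 10.96 and 9.82, then 9.32 and 9.06). The mesothelial and fibroblast list went up, from 14.42 and 14.53 to 15.60 and 15.70 (control 14.36 and 15.88, then 15.85 and 16.73). Their part in the differences was not tested. Fewer cells of a type and less RNA per cell cannot be told apart in such bulk samples.

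At the high dose 2171 of 26123 genes differed between the times, 1182 higher and 989 lower at 48 h (8.31%, 4.52% and 3.79%). Over all genes tested the differences within the 2 replicate numbers had the same sign in 65.9% and correlated at r = 0.53. This is a description over genes and not over samples. Among the bright genes 1471 differed, 772 higher and 699 lower (8.39%, 4.4% and 3.99%). The median difference over all genes was log2 -0.04 and the median standard error 0.40. Leaving out any 1 of the 4 high dose arrays left 0 to 2 genes, so the count rests on all 4 of them. Without either low dose array of 48 h, which enter only through the spread, it was 990. Among named genes called here, Il27 and Il23a alone stayed past the threshold without 1 array, in 3 of these 4 runs. Single calls near the threshold also depended on the settings: of the genes named, 22 were lost without the filter on dim probes, 9 under trended variances, 7 with the mean of the probes of a gene and 5 with the 4 high dose columns alone. With every column centred on its median the calls were 1592 higher and 650 lower (71.0% higher in place of 54.4%), the median of all genes moving to 0.14.

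Most called genes had changed early and were no longer past the threshold late. Of the 1182 higher genes 804 (68%) were lower with LECT2 at 3.5 h and not past the threshold at 48 h, 187 (15.8%) were raised at 48 h alone, and 85 were lowered at 3.5 h and raised at 48 h. Of the 989 lower genes 555 (56.1%) were raised at 3.5 h and not past the threshold at 48 h, 285 (28.8%) were lowered at 48 h alone, and 56 were raised early and lowered late. In the 2 effects themselves, 2664 genes were raised and 3066 lowered at 3.5 h (10.2% and 11.7%), and 1123 were raised and 1808 lowered at 48 h (4.3% and 6.92%). These splits rest on the effects at each time, in which a dye effect does not cancel, and they depend on the centring. With the columns centred on their median 1849 were raised and 4204 lowered at 3.5 h, and with the matched files centred likewise 2840 were raised and 8985 lowered at 3.5 h and 1790 and 6851 at 48 h.

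**Figure D1:**
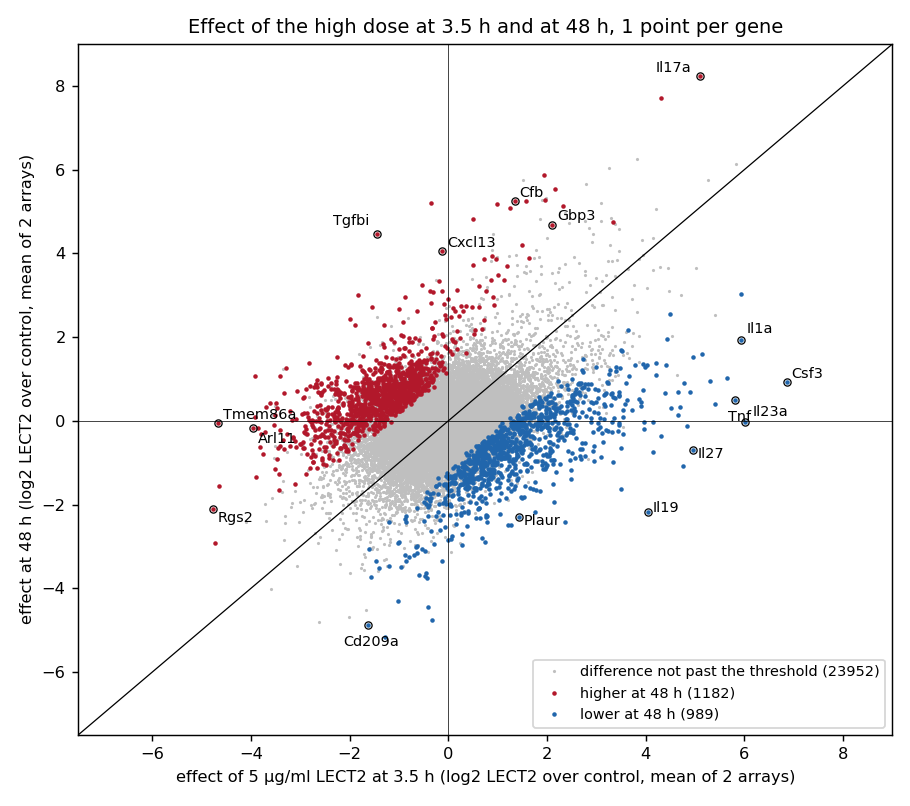
Effect of the high dose at 48 h (vertical axis) against the effect at 3.5 h (horizontal axis), both as log2 LECT2 over control and as means of 2 arrays, with 1 point per gene for 26123 genes. The 1182 genes higher at 48 h (red) lie above the diagonal of equal effects and the 989 lower ones (blue) below it; Tnf, Il23a, Csf3 and Il27 lie far to the right near or under 0 on the vertical axis, and Tgfbi, Cxcl13 and Cfb high near the centre.

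Most cytokine genes were raised early. Of 28 tested, 14 were lower at 48 h and 1 higher, against 3.79% and 4.52% of all genes tested. The median difference was log2 -1.84 against -0.04 over all genes (-1.36 over the 21 bright ones). The median effect of these cytokine genes was 3.38 at 3.5 h and 0.96 at 48 h. At the first time 23 were raised and at the second 10, against 10.2% and 4.3% of all genes tested.

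Csf3, the growth factor of neutrophils, stood at log2 6.89 and 6.82 on the 3.5 h arrays and at 1.30 and 0.53 on those of 48 h. The groups were far apart, with a difference of -5.94 ± 0.70 (SE, n = 2 arrays a group, adjusted p = 0.0119), or 61.4-fold. Il27, a subunit of interleukin 27, gave 4.83 and 5.07 early and -0.68 and -0.69 late. Its difference was -5.64 ± 0.30 (adjusted p = 0.00141), the late values lying slightly under the control. Tnf, the prototype inflammatory cytokine, had 5.72 and 5.91 at 3.5 h against 1.05 and -0.06 at 48 h, a difference of -5.32 ± 0.51 (adjusted p = 0.00815). By 48 h its effect of 0.50 was not past the threshold (adjusted p = 0.399).

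Lif, a cytokine of the interleukin 6 family, followed the same course with 5.42 and 5.88 early and 1.13 and 0.89 late (difference -4.64 ± 0.55, adjusted p = 0.0119). Il1a, an alarm cytokine released by damaged or activated cells, fell less far, from 6.57 and 5.30 to 2.41 and 1.47. With a difference of -4.0 ± 0.58 (adjusted p = 0.0158) it was still raised at 48 h (effect 1.94, adjusted p = 0.0273).

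In several cytokine genes the late LECT2 signal was not well above background, and the size of the change has only a bound. Such a bound comes from the matched files, whereas the array values and the adjusted p come from the table. Il23a, a subunit of the cytokine that sustains interleukin 17 producing T cells, gave 5.97 and 6.07 early and 0.10 and -0.16 late. Its ratio was at least 61.2-fold lower at 48 h (adjusted p = 0.00119). Il19, a cytokine of the interleukin 10 family, went from 4.11 and 3.98 to -2.35 and -2.02, at least 17.3-fold lower (adjusted p = 0.00815). Il10, whose product dampens inflammation, had 4.69 and 5.12 at 3.5 h and 0.90 and 0.47 at 48 h, where neither channel was well above background, so no fold is given (difference -4.22 ± 0.66, adjusted p = 0.0189).

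Not every inflammatory cytokine gene fell back in its ratio to the control. Il1b, the gene of the fever cytokine interleukin 1 beta, stood at 3.50 and 3.27 early and at 5.48 and 3.93 late, and its difference of 1.32 ± 0.64 missed the threshold (adjusted p = 0.23). Il6, a driver of the acute phase response, had 4.09 and 3.44 and then 3.75 and 2.73 (-0.52 ± 0.63, adjusted p = 0.634). Both were raised at each time, with adjusted p from 0.00225 to 0.0088. Nos2, which makes nitric oxide, gave 2.22 and 1.74 and then 1.48 and 1.44 (-0.52 ± 0.40, adjusted p = 0.438).

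Il17a, which lymphocytes rather than macrophages are known to make, was the 1 cytokine gene that was higher at 48 h. It stood at 5.53 and 4.65 on the early arrays and at 9.33 and 7.12 on the late ones, without overlap (difference 3.13 ± 0.72, adjusted p = 0.0416). The control signal was not well above background on either 3.5 h array, where the ratio was at least 4.51-fold, and on 1 of the 2 arrays at 48 h, so the difference has no bound. It was not past the threshold with the processed ratios of the matched files (adjusted p = 0.0927). Among T and NK cell markers 0 of 11 were higher and 1 lower, against 4.52% and 3.79% of all genes tested. The lower one was Cd247 of the T cell receptor complex, at -1.33 ± 0.33 (adjusted p = 0.0487, and 0.0533 with the replicate block). The summed LECT2 signal of the list was 13.74 and 13.73 (log2) early and 13.50 and 13.21 late. The part of such cells in the Il17a value was not tested.

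**Figure D2:**
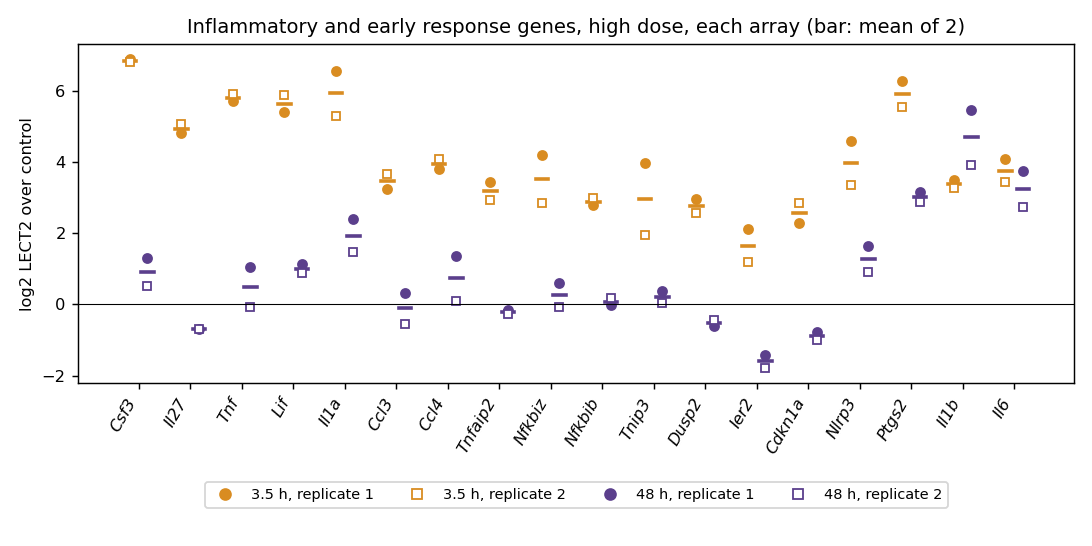
Log2 LECT2 over control on each high dose array for 18 inflammatory and early response genes, with circles for replicate 1, squares for replicate 2, orange for 3.5 h and purple for 48 h, and a bar at the mean of 2 arrays. From Csf3 to Ptgs2 both purple points lie under both orange ones, whereas for Il1b they lie above and for Il6 the 2 times overlap.

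Most NF-kB subunits, inhibitors and feedback genes fell back. Of 24 tested 14 were lower at 48 h and 0 higher, and 23 had a difference below 0 (median -1.75). The median effect was 2.36 at 3.5 h, with 23 raised, and 0.61 at 48 h, with 6 raised. Over all genes tested 3.79% were lower at 48 h, and 10.2% and 4.3% were raised at the 2 times. All 24 genes of the list were bright.

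Tnfaip2, a gene induced by tumour necrosis factor, stood at 3.44 and 2.94 early and at -0.15 and -0.27 late (difference -3.40 ± 0.31, adjusted p = 0.00815). Nfkbiz, a nuclear cofactor that NF-kB induces, went from 4.21 and 2.87 to 0.60 and -0.08 (-3.28 ± 0.54, adjusted p = 0.0205). Nfkbib, an inhibitor that holds NF-kB in the cytoplasm, went from 2.79 and 3.00 to -0.02 and 0.17 (-2.82 ± 0.33, adjusted p = 0.0115). In all 3 the late arrays lay near the control and apart from the early ones. Tnip3, a partner of the A20 brake on NF-kB, varied more, with 3.97 and 1.95 and then 0.37 and 0.03 (-2.76 ± 0.63, adjusted p = 0.0404).

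The promoters of 2 genes of this list are shown because both hold NF-kB matches near a start. In Tnip1 they are 1 stretch counted on both strands, and in Nfkb2 they are 2 separate stretches. Tnip1, another partner of A20, stood at 3.21 and 3.09 early and at 0.73 and 0.52 late (difference -2.53 ± 0.29, adjusted p = 0.0114). Nfkb2, the p100 precursor subunit, stood at 2.76 and 2.62 and then at 0.93 and 0.88 (-1.79 ± 0.28, adjusted p = 0.0191). Both genes were chosen for their promoters after their values were known. The 200 bases before the start are from RefSeq, build GRCm38.p6, written 5′ to 3′ on the strand of the gene, with matches on either strand in capitals; a match is GGG, any 3 bases and TTCC, or GGAAA, any 2 bases and CCC, and the 2 patterns can overlap:
Tnip1 promoter, chr11:54962941-54963140, minus strand: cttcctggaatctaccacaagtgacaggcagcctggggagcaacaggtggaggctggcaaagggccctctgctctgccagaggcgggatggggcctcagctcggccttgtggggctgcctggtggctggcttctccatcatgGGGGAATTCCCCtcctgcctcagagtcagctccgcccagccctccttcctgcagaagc
Nfkb2 promoter, chr19:46304537-46304736, plus strand: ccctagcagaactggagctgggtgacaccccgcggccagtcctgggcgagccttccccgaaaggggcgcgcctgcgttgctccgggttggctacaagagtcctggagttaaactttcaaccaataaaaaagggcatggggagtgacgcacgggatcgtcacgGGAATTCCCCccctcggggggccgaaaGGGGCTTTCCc
In Tnip1 the first pattern matches both strands of 1 palindromic stretch, 58 to 47 bases before the start. The matches of Nfkb2 lie 38 to 29 and 11 to 2 bases before the start shown. RefSeq lists 3 starts for Nfkb2, and the other 2 hold no match in the same stretch. Over the RefSeq windows of 300 bases (250 before and 50 after a start), 7 of 20 genes of the list with a promoter held the motif (35%), as did 902 of 13288 genes tested (6.79%). Of called genes 45 of 525 lower ones (8.57%) and 45 of 700 higher ones (6.43%) held it. A match is a stretch of letters and not a site of binding.

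Chemokines, which attract leukocytes, moved less uniformly. Of 12 CC chemokines 2 were lower and 0 higher (median difference -0.91), against 3.79% and 4.52% of all genes tested. Ccl3 and Ccl4, which attract monocytes and T cells, stood at 3.26 and 3.67 and at 3.81 and 4.08 at 3.5 h. By 48 h they were at 0.34 and -0.55 and at 1.37 and 0.10 (differences -3.57 ± 0.45 and -3.21 ± 0.53, adjusted p = 0.0129 and 0.0206). The late values of both genes lay under every early value.

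Of 12 CXC chemokines 1 was higher and 0 lower, against 4.52% and 3.79% of all genes tested. That gene was Cxcl13, which attracts B cells, at 0.24 and -0.51 on the early arrays and 5.27 and 2.84 on the late ones (difference 4.19 ± 0.80, adjusted p = 0.0258). The arrays of 48 h differed by more than those of 3.5 h, but both lay above them.

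Immediate early genes and dual-specificity phosphatases, the brakes of MAP kinases, had 8 of 30 members lower and 0 higher (median difference -0.70). Over all genes tested 3.79% were lower and 4.52% higher. Dusp2 went from 2.96 and 2.58 to -0.62 and -0.45 (-3.30 ± 0.36, adjusted p = 0.0101). Ier2 was raised early (2.12 and 1.19) and lowered late (-1.41 and -1.78), with adjusted p = 0.00807 and 0.0182 for the 2 effects. Cdkn1a, which encodes the cell cycle inhibitor p21, also changed side, from 2.29 and 2.85 to -0.77 and -0.99 (-3.45 ± 0.31, adjusted p = 0.00815). With the mean of its probes the difference was smaller, -2.20 (adjusted p = 0.0151). In its list of 36 cell cycle genes 4 were lower and 0 higher, among them the cyclin gene Ccnd2 (3.91 and 2.72, then 0.56 and -0.60, adjusted p = 0.0356).

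Inflammasome genes and enzymes of lipid mediators moved in both directions. Nlrp3, an inflammasome sensor, stood at 4.59 and 3.37 and then at 1.65 and 0.91 (-2.70 ± 0.48, adjusted p = 0.0234), while Pycard, the adaptor of that inflammasome, rose from -1.65 and -1.06 to 0.57 and 0.20 (1.74 ± 0.32, adjusted p = 0.0249). Myd88, the adaptor of most Toll-like receptors, went from 2.74 and 1.84 to 0.16 and -0.56 (adjusted p = 0.0207). It was the 1 called gene of 20 in its list, whereas 8.31% of all genes tested were called. Ptgs2, the inducible cyclooxygenase, remained raised at 48 h (6.30 and 5.57, then 3.15 and 2.88, difference -2.91 ± 0.63, adjusted p = 0.0358). Ptgs1, the constitutive form, and Lta4h, which makes leukotriene B4, went the other way, with early values of -1.76 and -1.94 and of -1.60 and -1.48. Late values were 0.05 and -0.12 and 0.17 and 0.38 (adjusted p = 0.0426 and 0.0187).

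Most interferon-stimulated genes were raised at both times. Of 27 antiviral genes 26 were raised at 3.5 h and 23 at 48 h, and 1 was higher and 2 were lower at 48 h (median difference -0.49). Over all genes tested 10.2% and 4.3% were raised at the 2 times, and 4.52% were higher and 3.79% lower. Of 17 guanylate-binding proteins and immunity-related GTPases, which attack vacuoles that hold pathogens, 11 were raised at 3.5 h and all 17 at 48 h. In this family 5 were higher and 0 lower (median difference 1.40), 16 had a difference above 0, and the median effect went from 1.98 to 3.67. Members are close copies of one another, and how far a probe tells them apart was not tested.

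Gbp3 stood at 2.49 and 1.71 early and at 4.84 and 4.54 late (difference 2.59 ± 0.38, adjusted p = 0.0167). Gbp2b had 2.86 and 1.04 and then 5.36 and 5.17 (3.32 ± 0.60, adjusted p = 0.0237), and Gbp2 had 2.17 and 1.11 and then 4.15 and 3.63 (2.25 ± 0.41, adjusted p = 0.0242). In each gene the late arrays lay together above both early ones. Gbp6 was uneven at 3.5 h, with 3.04 in replicate 1 and 0.11 in replicate 2, but stood at 5.37 and 5.13 at 48 h (adjusted p = 0.0405, and 0.057 with the mean of its probes). Gbp8 went from 1.13 and -1.85 to 5.56 and 4.86 (adjusted p = 0.025), with the control above background on 1 of 2 late arrays. Gbp4, at 2.75 and 1.22 and then 6.08 and 4.54, missed the threshold (adjusted p = 0.0569), but not with the replicate block (adjusted p = 0.0104).

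The 3 called antiviral genes did not move one way. Ifit1, which binds foreign RNA, went from 3.46 and 3.19 to 5.01 and 4.49 (1.42 ± 0.34, adjusted p = 0.0465). This call was lost with the matched files under loess (0.51, adjusted p = 0.247). Isg15, a ubiquitin-like modifier, went from 3.45 and 3.49 to 1.29 and 1.25 (-2.20 ± 0.30, adjusted p = 0.0146). Oasl1, a member of the oligoadenylate synthetase family, went from 3.61 and 3.69 to 1.86 and 0.25 (-2.59 ± 0.55, adjusted p = 0.0342).

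The promoters of Gbp2b, Gbp3, Ifit1 and Isg15 are shown because they hold the same core of an interferon response element although Isg15 moved opposite to the other 3. Capitals mark GAAA, any 2 bases and GAAA on either strand (TTTC, any 2 bases and TTTC on the opposite one), in the 200 bases before a start (RefSeq, GRCm38.p6, strand of the gene):
Gbp2b promoter, chr3:142594647-142594846, plus strand: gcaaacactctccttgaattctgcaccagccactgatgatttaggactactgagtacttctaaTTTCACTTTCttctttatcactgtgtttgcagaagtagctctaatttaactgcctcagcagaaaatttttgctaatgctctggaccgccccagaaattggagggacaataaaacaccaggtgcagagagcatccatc
Gbp3 promoter, chr3:142559844-142560043, plus strand: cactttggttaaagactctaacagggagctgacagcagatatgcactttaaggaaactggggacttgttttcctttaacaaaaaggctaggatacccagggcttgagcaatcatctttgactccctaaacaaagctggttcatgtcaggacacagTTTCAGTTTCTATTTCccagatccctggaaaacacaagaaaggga
Ifit1 promoter, chr19:34640689-34640888, plus strand: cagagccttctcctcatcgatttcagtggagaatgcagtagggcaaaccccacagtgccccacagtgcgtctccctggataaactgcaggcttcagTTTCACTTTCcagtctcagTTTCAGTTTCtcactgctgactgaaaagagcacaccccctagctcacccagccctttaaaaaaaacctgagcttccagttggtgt
Isg15 promoter, chr4:156200819-156201018, minus strand: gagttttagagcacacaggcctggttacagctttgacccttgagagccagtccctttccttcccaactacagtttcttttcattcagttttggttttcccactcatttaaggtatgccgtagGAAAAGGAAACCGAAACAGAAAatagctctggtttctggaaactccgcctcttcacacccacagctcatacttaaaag
For Gbp3, which has 2 listed starts, the one with matches is shown. Distances from the start were 137 to 128 bases in Gbp2b, 45 to 30 in Gbp3, 104 to 95 and 85 to 76 in Ifit1, and 78 to 57 in Isg15, where 3 matches overlap. All 10 members of the guanylate-binding protein and GTPase list with a promoter held the core, as did 11 of 21 antiviral genes (52.4%) and 512 of 13288 genes tested (3.85%). Among called genes the shares were 30 of 700 higher ones (4.29%) and 21 of 525 lower ones (4.0%).

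**Figure D3:**
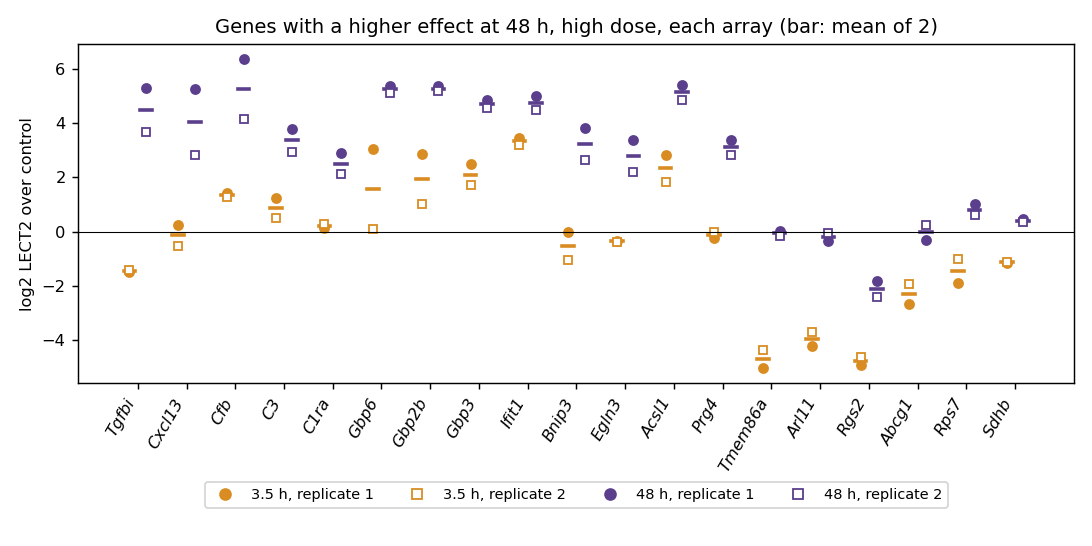
Log2 LECT2 over control on each high dose array for 19 genes that were higher at 48 h, with circles for replicate 1, squares for replicate 2, orange for 3.5 h and purple for 48 h, and a bar at the mean of 2 arrays. Tgfbi, Cxcl13, Bnip3 and Prg4 go from near or under 0 to raised levels, whereas Tmem86a and Arl11 go from between -5.01 and -3.71 back toward 0.

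Single genes of secreted proteins were higher at 48 h. Tgfbi, a matrix protein that transforming growth factor beta induces, had the largest difference above 0 among bright genes with a symbol, from -1.47 and -1.40 to 5.29 and 3.66 (5.91 ± 0.87, adjusted p = 0.0164). Cfb, factor B of the alternative complement pathway, went from 1.41 and 1.27 to 6.35 and 4.14 (3.90 ± 0.81, adjusted p = 0.0331). C3, the central complement protein, went from 1.23 and 0.50 to 3.79 and 2.94, and C1ra, a protease of the classical pathway, from 0.13 and 0.28 to 2.91 and 2.11 (adjusted p = 0.0335 and 0.0247). With the mean of its probes C1ra missed the threshold (adjusted p = 0.071). On each gene both late values lay above both early ones.

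Complement was split, with 3 of 19 genes higher and 3 lower (4.52% and 3.79% of all genes tested). The lower ones were C1qa and C1qc, chains of the recognition molecule C1q that macrophages make, and the receptor subunit Itgax. C1qa went from -1.0 and -1.05 to -2.44 and -3.42 (-1.90 ± 0.37, adjusted p = 0.0284). C1qc went from -1.30 and -0.70 to -2.42 and -3.39 (-1.91 ± 0.42, adjusted p = 0.0373). At the low dose their values between the times differed by 0.89 and 0.99, but the interaction of dose and time called 0 genes.

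In the list of glycolysis and hypoxia genes 3 of 25 were higher and 0 lower (median difference 0.52), while 4.52% of all genes tested were higher. LECT2 raised 5 of them at 3.5 h and 11 at 48 h, counts whose difference was not tested. Over all genes tested it raised 10.2% and 4.3% at these times. Bnip3, a mitochondrial protein of cell death and mitophagy, went from -0.02 and -1.03 to 3.82 and 2.66 (3.76 ± 0.68, adjusted p = 0.024). Egln3, an oxygen-sensing hydroxylase, went from -0.33 and -0.39 to 3.39 and 2.21, and P4ha1, which hydroxylates collagen, from -0.96 and -0.48 to 1.40 and 0.98 (adjusted p = 0.031 and 0.0404). With the mean over all probes of a gene the last 2 missed the threshold (adjusted p = 0.15 and 0.113), and 1 of 25 was higher.

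In the list of cholesterol efflux and lipid storage 5 of 24 were higher and 0 lower (median difference 0.18). With the mean of the probes of a gene 3 were higher. Over all genes tested 4.52% were higher and 3.79% lower. Abcg1, which exports cholesterol, went from -2.66 and -1.93 to -0.29 and 0.25 (2.28 ± 0.41, adjusted p = 0.0242). Acsl1, which activates fatty acids, was raised at both times, from 2.84 and 1.83 to 5.41 and 4.86 (2.80 ± 0.67, adjusted p = 0.0465), a call lost with no filter, under trended variances and with the mean of its probes (adjusted p = 0.0829 for the last). Of 23 cholesterol synthesis genes 1 was lower, a count near the 3.79% of all genes tested. That gene was Insig1, a brake on the pathway (0.72 and 0.05, then -2.05 and -1.19, adjusted p = 0.0329).

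Ribosomal protein genes and genes of the respiratory chain had most of their differences above 0, with few calls. Over all genes tested 4.52% were higher at 48 h and the median difference was -0.04. With the mean of the probes of a gene, 2 genes of the ribosomal list and 1 of the respiratory chain list were higher. Of 29 ribosomal genes 4 were higher and 0 lower (median difference 0.47), and 23 had a difference above 0. Rps7 went from -1.87 and -1.01 to 1.02 and 0.60 (2.25 ± 0.41, adjusted p = 0.0242) and Rpl5 from -0.98 and -0.66 to 1.56 and 0.83 (2.02 ± 0.35, adjusted p = 0.0229). Of 25 respiratory chain genes 2 were higher and 0 lower (median difference 0.50), Sdhb and Sdhd of complex II. Sdhb had -1.15 and -1.10 and then 0.45 and 0.37, and Sdhd -0.84 and -1.18 and then 0.80 and 0.66 (adjusted p = 0.0247 and 0.0234, that of Sdhb being 0.0503 with the mean of its probes).

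**Figure D4:**
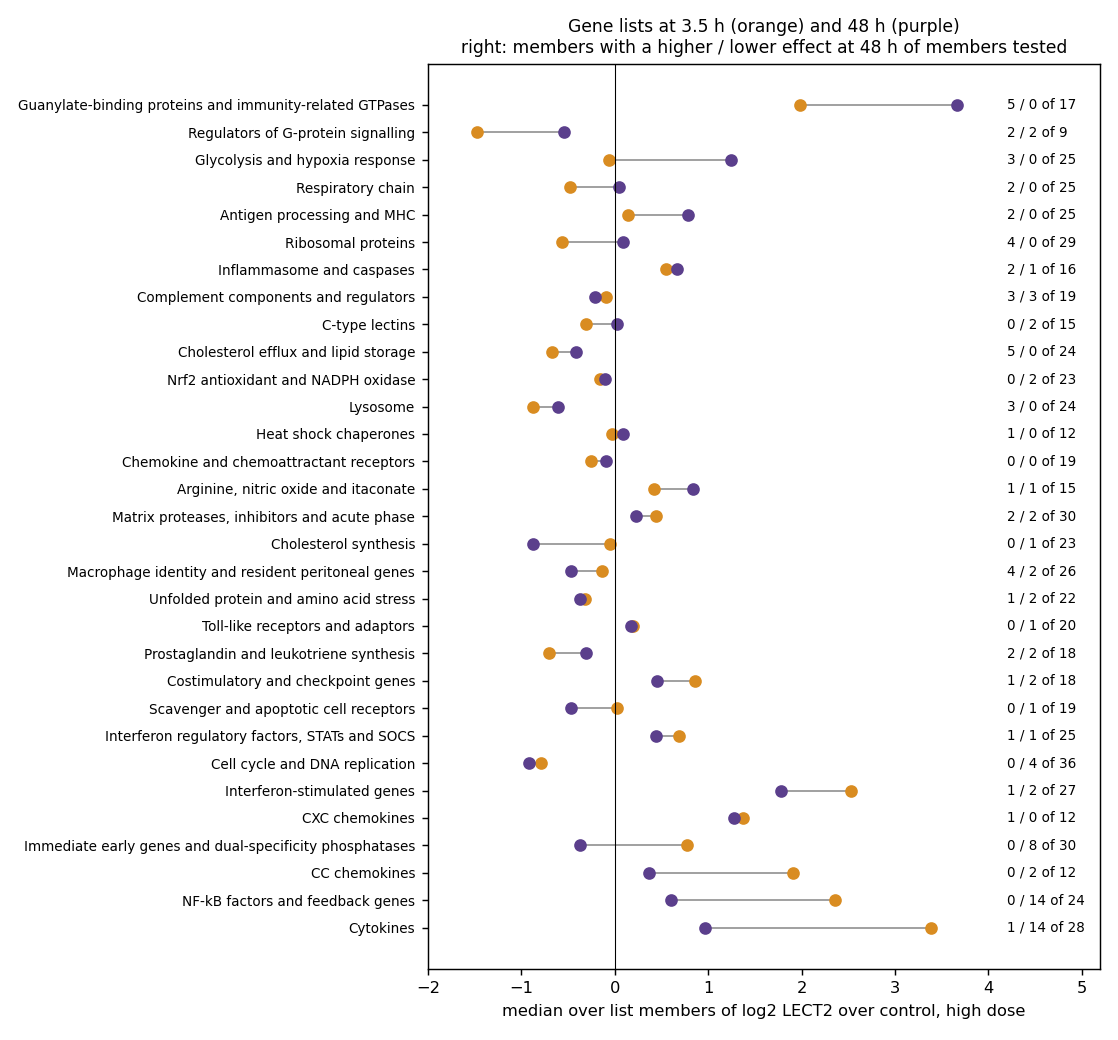
Median log2 LECT2 over control at the high dose for 31 gene lists (rows), at 3.5 h (orange) and at 48 h (purple), ordered by the median difference, with the number of members higher and lower at 48 h of those tested at the right. Cytokines and NF-kB genes have their medians at 3.38 and 2.36 early and at 0.96 and 0.61 late, and guanylate-binding proteins and GTPases go from 1.98 to 3.67.

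Genes of macrophage identity moved in both directions, with 4 of 26 higher and 2 lower (4.52% and 3.79% of all genes tested). Prg4, which encodes lubricin, went from -0.24 and -0.02 to 3.37 and 2.83 (3.23 ± 0.48, adjusted p = 0.0164). With the mean of its probes the difference was smaller, 1.80 (adjusted p = 0.0333). Spi1, the master factor PU.1 of myeloid cells, went from 1.31 and 1.04 to -0.60 and -0.98 (-1.97 ± 0.30, adjusted p = 0.0181). Alox15, the 12/15-lipoxygenase of resident peritoneal macrophages, went from 0.12 and -0.79 to -4.51 and -5.01, at least 6.18-fold lower at 48 h since its late LECT2 signal was not well above background (adjusted p = 0.0158).

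Cd209a and Cd209b, C-type lectin genes related to human DC-SIGN, were the 2 lower ones of 15 lectin genes, with 0 higher. Of all genes tested 3.79% were lower and 4.52% higher. Cd209a stood at -1.73 and -1.54 and then at -5.15 and -4.60, with the late LECT2 signal above background on 1 of 2 arrays (-3.24 ± 0.64, adjusted p = 0.0284). Under the matched files with loess its difference was -1.47 (adjusted p = 0.0653). Cd209b had a bound of at least 1.66-fold lower (adjusted p = 0.0335, and 0.241 with the matched files under loess). In the dendritic cell marker list, which holds Cd209a, 2 of 8 were lower, the other being Zbtb46, a factor of classical dendritic cells, at -2.66 ± 0.33 (adjusted p = 0.0124). The summed LECT2 signal of that list lay at log2 12.92 and 13.06 at 3.5 h and at 11.57 and 11.63 at 48 h, and in the control at 12.04 and 11.82 and at 11.92 and 11.74; the part of such cells in the Cd209a value was not tested.

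Regulators of G-protein signalling, which shorten the signal of chemokine and other receptors, went both ways, with 2 of 9 higher and 2 lower. Over all genes tested the shares were 4.52% and 3.79%. Rgs2 was strongly lowered early, at -4.92 and -4.63, and stood at -1.82 and -2.41 at 48 h (2.66 ± 0.35, adjusted p = 0.0134), still lowered (adjusted p = 0.00544). With the mean of its probes the difference was 1.59 and missed the threshold (adjusted p = 0.0595). Rgs10 went from -1.80 and -1.60 to 0.68 and 0.63 (2.36 ± 0.28, adjusted p = 0.0119).  Tmem86a, a lysoplasmalogenase family gene, and Arl11, a small GTPase of macrophages, returned from -5.01 and -4.34 and from -4.21 and -3.71 to 0.03 and -0.16 and to -0.33 and -0.04 (both adjusted p = 0.00815). Ypel2 went from -3.29 and -3.68 to 0.30 and 0.57 (adjusted p = 0.00815).

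In the lists of matrix and immune surface genes single members stood out. Plaur, the urokinase receptor, was raised early (1.18 and 1.68) and lowered late (-2.43 and -2.14), a difference of -3.71 ± 0.40 (adjusted p = 0.00969). Mmp3, a matrix protease, went from 4.39 and 3.54 to -0.71 and 0.65 (-4.0 ± 0.90, adjusted p = 0.0395). Its control was above background on 1 of 2 arrays at each time, and its LECT2 signal on 1 of 2 at 48 h. Icosl, a costimulatory ligand, was at least 6.82-fold lower at 48 h (1.86 and 2.41, then -2.14 and -1.72, adjusted p = 0.00815). Nt5e, the ectoenzyme CD73 that makes adenosine, was at least 9.19-fold higher (-2.89 and -3.70, then 1.72 and 0.80, adjusted p = 0.0101). Irf2, a factor that opposes interferon induction, went from -1.15 and -1.36 to 0.79 and 0.69 (adjusted p = 0.0146).

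Arg1, a gene of alternative activation, gave -0.43 and -2.75 at 3.5 h and 3.45 and 0.07 at 48 h. Both late values lay above both early ones, but the spread was wide and the difference of 3.34 ± 1.60 missed the threshold (adjusted p = 0.221), which it passed with the replicate number as a block (adjusted p = 0.0118). Met, the hepatocyte growth factor receptor to which LECT2 can bind, went from 3.30 and 2.38 to 0.99 and 0.77 (-1.96 ± 0.39, adjusted p = 0.0301). Its control was above background on 1 of 2 arrays at 3.5 h. Among mesothelial and fibroblast markers 1 of 10 was called, against 8.31% of all genes tested. It was Pdgfra, a growth factor receptor of stromal cells, at -2.10 ± 0.38 (adjusted p = 0.0242).

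A ratio moves with either channel, so the normalised signals of the matched files are given as values, with no test since slide and time coincide there. Among the 772 bright higher genes the LECT2 signal changed more than the control signal in 644 (83.4%), with a median change of log2 1.40 against -0.24 in the control. Among the 699 bright lower genes it did so in 654 (93.6%), at -1.68 against 0.07. Over all bright genes with both signals the share was 66.1%.

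For Tnf the LECT2 signal lay at log2 17.81 and 17.89 early and at 10.69 and 10.38 late, while the control went from 11.75 and 11.96 to 9.75 and 10.41. Nfkbib was simpler, with a LECT2 signal that went from 15.35 and 15.33 to 12.43 and 12.21 over a control that changed by -0.11 on average. Among the 27 interferon-stimulated genes the LECT2 signal changed more than the control signal in 19 (70.4%, against 66.1% of all bright genes), with median changes of -2.33 and -1.24. For Ifit1, whose ratio grew unlike those of 17 members with a difference below 0, both signals fell between the times, LECT2 from 15.16 and 14.93 to 12.28 and 12.19 and control from 11.17 and 11.37 to 7.77 and 8.11, and its level with LECT2 was thus lower at 48 h. Gbp2b had a LECT2 signal of 13.25 and 12.04 and then 12.75 and 12.55, under which the control went from 10.26 and 10.99 to 7.95 and 7.92.

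Over the 16 bright guanylate-binding proteins and GTPases the control signal was lower at 48 h in all 16 (median change -1.04), and the LECT2 signal changed by a median of -0.07. The LECT2 signal went up in 8 of them, Gbp3 among these, from 12.99 and 12.69 to 14.52 and 14.57. The controls of Cfb and Cxcl13 also went down, by a mean of -3.00 and -2.86 against 0.77 and 1.14 in the LECT2 channel. For Tgfbi both channels contributed, 3.75 with LECT2 and -1.94 in the control. In Il1b, whose ratio did not differ past the threshold, LECT2 and control signals changed by -1.32 and -2.19. The same signals changed by -2.31 and -1.19 in Il6 and by -1.60 and -0.70 in Nos2.

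**Figure D5:**
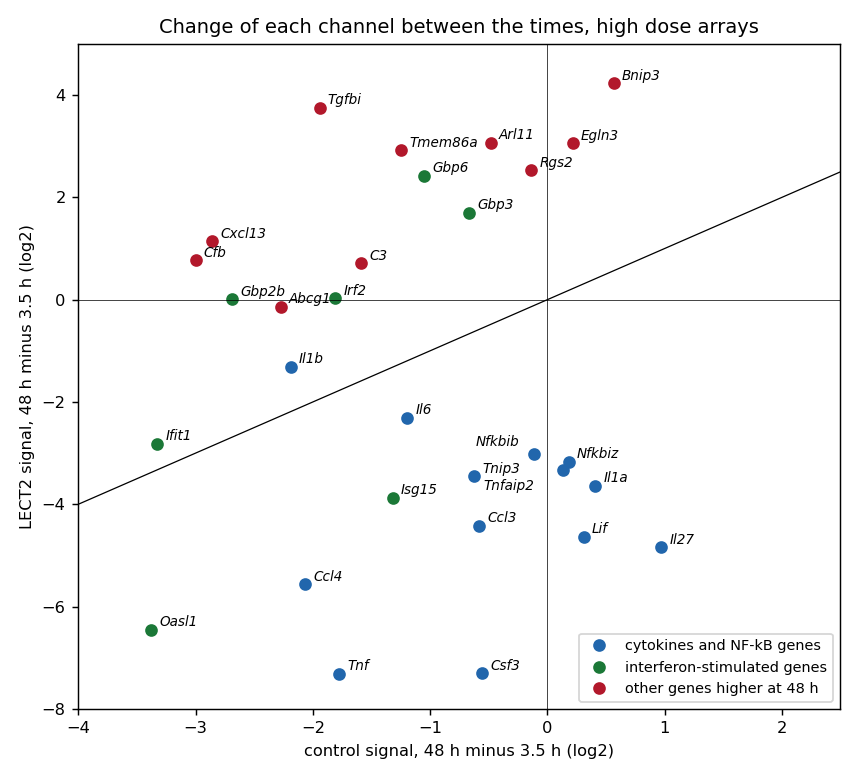
Change of the normalised LECT2 signal (vertical axis) against that of the control signal (horizontal axis) from 3.5 h to 48 h, in log2 units, for 30 named genes on the high dose arrays; the line marks equal changes, so that the ratio grew above it and shrank below it. Tnf and Csf3 lie at -7.31 on the vertical axis, Ifit1 lies just above the line at -2.81 with the control at -3.33, and Cfb, Cxcl13 and Gbp2b lie at the left because their controls went down.

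The low dose is given for comparison of values. There 26 genes differed between the times, 4 higher and 22 lower (0.0995%, 0.0153% and 0.0842%), and the test of dose by time called 0 of 26123 genes (0.0%, with 2541 at an unadjusted p under 0.05), so no difference in time course between doses is called. Tnf changed between the times by -4.71 and Il1a by -5.38 at the low dose. Gbp2b changed by 3.23 and Rgs2 by 3.58. Tgfbi changed by 0.75 there, Cxcl13 by -0.93, Il10 by -0.26 and Plaur by -0.54, each with adjusted p = 0.468 in the test of dose by time.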

How the data were processed

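RNA of treated and untreated cells was hybridised together on 8 Agilent 2-colour arrays. Slides were read with Agilent Feature Extraction 10.7.3.1, per the submitters' processing notes, and the deposited scanner files hold spot intensity for each channel and a log10 ratio of Cy5 over Cy3; the array annotation is on mm9. The deposited table is in log2 units, and its making is not given in the sources used here. Between 56.4% and 82.3% of spots were above background in a channel of the high dose arrays (matched link), and 39428 probes are in the table. RefSeq accessions gave a gene for 26411 of them, and 13017 stay without a name. A probe was kept (31587 probes) if 1 of its channels was well above background on 2 or more of the 8 arrays, and the brightest probe stood for a gene.

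limma 3.58.1 in R 4.3.3 fitted 1 mean per group to the 8 columns (4 residual degrees of freedom), with Benjamini-Hochberg adjustment. The replicates are from 2 experiments with different mice, per the series' design text, which does not tie the replicate number to them. The replicate number was taken to pair the arrays. Deviations of same-numbered arrays correlated between groups at r = 0.05, 0.17, 0.00, 0.20, -0.06 (high dose, 3.5 h with 48 h) and 0.47, and the block was an alternative. Where a channel was well above background on neither array of a group, a fold is given as a bound from the matched files. That channel was set to its own signal or to the lowest signal called above background, whichever was higher. Channel signals came from matched files after normexp (offset 50) and loess. The mean log2 intensity of the 2 channels was then quantile normalised, which gives it the same distribution on every array. Named genes are the largest called differences, up to 4 called members of a list in each direction, and Tnf, Il1b, Il6, Il10, Arg1, Cd209a, Nos2 and Met; Gbp2, Gbp4, Tnip1 and Nfkb2 were added after their values were seen. Members and lists were chosen with earlier results of these data known. The fit was tested on simulated data.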

Additional observations from a re-analysis of the deposited data

Results flagged for a closer look

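A change of side between the times marks these results, and the difference itself was tested by limma. In all, 85 genes were lowered by LECT2 at 3.5 h and raised at 48 h, and 56 were raised at 3.5 h and lowered at 48 h, each past the threshold in both effects and in the difference. Of the genes in the first set, Tigd2, a transposase-derived gene, differed by log2 4.19 (-1.64 and -2.15, then 2.40 and 2.19), Cdo1, which degrades cysteine, by 3.77, Fgl2, a secreted fibrinogen-like protein, by 3.59 and Per2, a clock gene, by 3.50. Pts, an enzyme of tetrahydrobiopterin synthesis, differed by 1.78. In the second set Plaur differed by -3.71, Cdkn1a by -3.45 (-2.20 with the mean of its probes) and Ier2 by -3.25. None of the 8 genes stayed past the threshold when 1 high dose array was left out.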

How the results depend on the processing

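Under the alternatives with the table or the matched files, the difference between the times at the high dose kept its sign for all genes named here, and from 940 to 4617 genes were called in place of 2171. The larger moves were 940 with no filter on dim probes, 4617 with the matched files under normexp and loess, and 3437 with the same files and the bright genes only, an alternative chosen after seeing the data (2597 with the table). The block on the replicate number gave 2461 (1316 higher and 1145 lower), and among the named differences it changed no call other than those of Arg1, Gbp4 and Cd247. With no filter the named genes Acsl1, C1qa, C1qc, C3, Ccnd2, Cd209a, Cd209b, Cd247, Cfb, Egln3, Gbp6, Ifit1, Il17a, Insig1, Itgax, Met, Mmp3, Oasl1, P4ha1, Ptgs1, Ptgs2 and Tnip3 were no longer past the threshold. Under trended variances this held for Acsl1, Cd209b, Cd247, Gbp2, Gbp6, Ifit1, Il17a, Oasl1 and Ptgs2. Taking the mean of the probes of a gene it held for Acsl1, C1ra, Egln3, Gbp6, P4ha1, Rgs2 and Sdhb. In a fit of the 4 high dose columns alone the calls of C1qc, Cd247, Ifit1, Pycard and Sdhb were lost. Using the matched files with median centring those of Cd209a, Cd209b, Cd247, Ifit1 and Itgax were lost. From the processed ratios Cd209b, Ifit1 and Il17a missed the threshold. From the matched files with loess Cd209a, Cd209b and Ifit1 missed it. Leaving out 1 array gave 0 to 2062 genes for the difference (0 to 2 for a high dose array, 2062 for each low dose array of 3.5 h and 990 for each of 48 h), 901 to 5588 for the effect at 3.5 h, 14 to 2947 for the effect at 48 h and 0 to 97 for the dose by time interaction, the 97 without replicate 2 of the low dose at 3.5 h. In these runs the lone array of a group is assumed to vary like the others. Without the filter the effect at 48 h had 1689 genes in place of 2931. Median centring of the matched files gave 11825 genes at 3.5 h and 8641 at 48 h (medians of all genes -0.27 and -0.25), and 2154 for the difference. The interaction called 1 gene with the processed ratios. The cause of these moves was not tested.

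When each scanner file was given to the sample it is recorded under, 0 genes were called for the difference and for the effect at 3.5 h and 1 for the effect at 48 h. Each group of a time then holds 1 file of each matched time, and 72 named differences had the opposite sign, all with an adjusted p above 0.99: Cxcl13 -2.36, Tgfbi -2.28, Il17a -1.81, Prg4 -1.53, Acsl1 -1.51, Bnip3 -1.46, Gbp6 -1.35, Cdo1 -1.27, Tigd2 -1.19, Per2 -1.13, Nt5e -1.07, Egln3 -1.04, Gbp3 -1.03, Fgl2 -0.997, Arl11 -0.996, Il1b -0.937, Ypel2 -0.929, Cfb -0.838, Gbp2b -0.813, C3 -0.792, Sdhd -0.754, Rgs10 -0.698, Gbp2 -0.685, Rpl5 -0.656, Lta4h -0.65, C1ra -0.597, Gbp8 -0.556, Rps7 -0.548, Pts -0.537, Sdhb -0.53, Tmem86a -0.525, Ifit1 -0.476, Abcg1 -0.358, Irf2 -0.343, P4ha1 -0.329, Gbp4 -0.0753, Zbtb46 0.000115, Nos2 0.00201, Nfkb2 0.0032, Tnfaip2 0.0222, Cd247 0.0541, Cd209b 0.0748, Tnip3 0.196, Alox15 0.259, Tnf 0.274, Met 0.308, Myd88 0.331, Itgax 0.368, Icosl 0.399, Spi1 0.426, Lif 0.458, Cd209a 0.47, Nfkbib 0.491, Isg15 0.541, Insig1 0.574, Pdgfra 0.654, Ccl3 0.759, Oasl1 0.857, Ccl4 0.923, Dusp2 0.973, Ier2 1.04, Cdkn1a 1.05, Mmp3 1.15, Ccnd2 1.22, Plaur 1.31, Csf3 1.34, Il27 1.41, Il23a 1.48, Il10 1.51, C1qa 1.68, Il19 1.78, C1qc 1.87. The number of arrays limits the precision.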
